A study of Mus musculus with 386 samples.

Results

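Kinesins are motor proteins that walk along microtubules, and mouse germ cells from 3 ages around birth were examined here for the genes that encode them. The genes were chosen by name: every gene row whose symbol is Kif followed by a number and at most 1 letter, without pseudogenes. This rule found 38 of the 54658 gene rows. Another 10 rows begin with Kif and are not among the 38, namely the minus-end motors Kifc1, Kifc2, Kifc3 and Kifc5b, the adaptors Kifap3 and Kif1bp, the transcript Kif16bos and the pseudogenes Kif4-ps, Kif22-ps and Kifc5c-ps. Single female germ cells had been picked by hand from dissociated ovaries and their polyadenylated RNA sequenced by Smart-seq2, a full-length single-cell method. The groups are embryonic day 17.5 (E17.5, 22 libraries), day 6.5 after birth (P6.5, 47 libraries) and, with the rest of the 386 libraries, day 2.5 after birth (P2.5), and the labels name no strain, genotype, treatment or animal for any of them.

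Most kinesins use a motor domain that burns ATP to step toward the plus end of a microtubule, while their tails choose the cargo. One set builds the spindle, moves chromosomes and completes cytokinesis; another carries vesicles, endosomes, mitochondria and RNA; some serve the cilium; and a few shorten or cap microtubule ends. Around birth the mouse oocyte passes from meiotic prophase in germ cell clusters to arrest inside a primordial follicle and, in some follicles, to growth, so that its next spindle is built only at meiotic maturation, much later.

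Of the 12 genes listed here as division motors, 11 have a RefSeq promoter sequence (250 bases before to 50 after the transcription start, GRCm38.p6, the build that mm10 names). A cell cycle homology region (CHR), an element through which repressor complexes act on genes of the G2 and M phases, was searched as TTTGAA on both strands, and the CCAAT box, the site of the factor NF-Y, as CCAAT on both strands. A CHR match was present in the promoter of 9 of the 11 division motors (Kif4, Kif11, Kif14, Kif15, Kif18b, Kif20b, Kif22, Kif23 and Kif2c). It was present in 1 of 10 cargo motors, 2 of 7 cilium and signalling genes and 0 of 3 other members, against 20.2% of the 27025 genes with a promoter of the same length in the table. The CCAAT letters were present in 7 of 11 division motors and in 14 of all 31 members with a promoter, against 41.1% of all genes, and the 2 motifs share no letters in the promoters below. The letters TAATTG, a site reported for the oocyte factor NOBOX, were present in Kif6 and Kif9 alone (9.22% of genes), and the E2F letters TTCCCGCC in Kif6 alone (2.52%). In Kif6 the CCAAT and TAATTG matches overlap. A match is a description of letters and not a measured site. The 5 promoters below are those of division motors with a 2-fold or larger stage difference, written 5′ to 3′ with CHR and CCAAT matches on either strand in capitals.
Kif4 (chrX:100625815-100626114, plus strand): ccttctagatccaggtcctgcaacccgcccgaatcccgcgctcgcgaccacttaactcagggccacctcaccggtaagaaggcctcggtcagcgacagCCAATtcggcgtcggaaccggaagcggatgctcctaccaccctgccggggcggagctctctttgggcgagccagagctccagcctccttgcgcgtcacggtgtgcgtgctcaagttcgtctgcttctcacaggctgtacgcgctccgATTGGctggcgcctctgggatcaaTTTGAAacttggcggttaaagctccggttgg
Kif14 (chr1:136467598-136467897, plus strand): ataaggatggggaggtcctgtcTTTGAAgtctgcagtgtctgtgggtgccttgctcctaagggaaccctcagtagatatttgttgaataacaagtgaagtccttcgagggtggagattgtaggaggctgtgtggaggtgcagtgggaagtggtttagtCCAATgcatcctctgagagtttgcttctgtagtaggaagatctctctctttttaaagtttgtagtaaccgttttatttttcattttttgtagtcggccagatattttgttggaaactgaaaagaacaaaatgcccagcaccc
Kif22 (chr7:127042371-127042670, minus strand): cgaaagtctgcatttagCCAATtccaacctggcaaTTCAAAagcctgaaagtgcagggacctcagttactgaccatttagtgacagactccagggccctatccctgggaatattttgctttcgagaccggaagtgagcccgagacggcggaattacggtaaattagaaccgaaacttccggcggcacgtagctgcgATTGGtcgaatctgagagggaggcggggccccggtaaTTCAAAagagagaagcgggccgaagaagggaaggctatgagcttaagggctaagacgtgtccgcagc
Kif15 (chr9:122950831-122951130, plus strand): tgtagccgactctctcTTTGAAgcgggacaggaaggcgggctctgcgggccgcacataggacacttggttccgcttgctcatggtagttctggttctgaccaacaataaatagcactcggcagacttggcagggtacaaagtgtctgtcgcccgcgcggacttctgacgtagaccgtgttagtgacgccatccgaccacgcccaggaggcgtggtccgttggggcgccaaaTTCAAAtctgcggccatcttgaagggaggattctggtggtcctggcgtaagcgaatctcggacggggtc
Kif18a (chr2:109280488-109280787, plus strand): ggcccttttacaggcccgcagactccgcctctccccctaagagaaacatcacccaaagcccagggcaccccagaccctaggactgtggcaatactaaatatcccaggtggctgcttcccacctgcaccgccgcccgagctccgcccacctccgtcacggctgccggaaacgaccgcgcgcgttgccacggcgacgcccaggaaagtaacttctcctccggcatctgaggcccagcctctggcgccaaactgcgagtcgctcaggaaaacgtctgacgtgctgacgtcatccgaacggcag
The first 3 belong to genes that were higher at P2.5 than at E17.5 and the last 2 to genes that were lower. Kif4 has its CHR letters 20 bases after the start and CCAAT letters 5 bases before it and again farther upstream. Kif14 has CCAAT letters 92 bases before the start and CHR letters near the upstream end. Kif22 has CHR letters 17 and CCAAT letters 54 bases before the start, and each again near the upstream end. Kif15 has CHR letters 19 bases before the start and near the upstream end and no CCAAT letters, and Kif18a holds neither. CHR letters thus stand in promoters of both directions. CCAAT letters stand in the 3 higher genes and in neither of the 2 lower ones, a description of 5 genes picked by their ratios. This contrast did not extend to the other called members with a promoter. CCAAT letters stood in Kif3a and Kif6 (higher) and in Kif3b and Kif26b (lower). They were absent from Kif5c, Kif7, Kif9, Kif16b, Kif17 and Kif21a (higher) and from Kif1a, Kif3c and Kif26a (lower).

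Library totals ran from 1016746 to 16125066 gene counts at E17.5, from 435560 to 23982709 at P2.5 and from 5714357 to 15799302 at P6.5. In the P2.5 group 24 pairs of libraries agreed nearly within sampling noise and each pair became 1 cell, for 362 cells over the 3 ages. Summed germ cell markers (Ddx4, Dazl, Dppa3, Mael, Taf4b, Sycp3) were at least 2002 counts-per-million (CPM) in every P2.5 cell and at least 3636 CPM in every P6.5 cell. At E17.5 they were at least 1175 CPM in 18 libraries and 246.6 to 705 CPM in the libraries numbered 8, 10, 15 and 16, so the germ cell label is weak for those 4. The mast cell genes Cpa3, Tpsb2 and Cma1 summed to 1209 CPM or more in each of libraries 1 to 10 (median 2757 CPM, 97392 CPM in library 10), and to at most 25.4 CPM in libraries 11 to 22. Erythroid genes such as the globins stood at 214.9 to 5866 CPM in every E17.5 library, against a median of 9.40 CPM at P2.5. Library 16 held 2147 CPM of granulosa and pregranulosa markers. E17.5 libraries 11 to 22 held more granulosa and pregranulosa markers (median 162.2 CPM, with 11 of 12 genes detected and Amh at 0) than libraries 1 to 10 (median 11.2 CPM). The labels do not say what sets these runs of numbers apart, so the ratio against a run is given beside each gene whose call it changes. Kif1a, Kif3c and Kif26a were not measured against libraries 1 to 10. They stood there at 0.0158, 0 and 0 CPM, below their P2.5 levels of 0.480, 0.997 and 0.406 CPM. Kif28 was not measured against libraries 11 to 22. Against libraries 1 to 10 alone 15 members were called higher at P2.5 and 6 lower, beside 28.3% and 28.7% of all genes. Against libraries 11 to 22 alone 12 and 9 were, beside 25.3% and 32.5%. The part of the erythroid genes in the results was not tested. A stage counts as 1 sample, since cells of unnamed animals are not replicates, so no p-value is given; intervals cover the counting of reads only.

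As a share of all counts, the kinesin genes took 1393 CPM at E17.5, 2223 CPM at P2.5 and 2219 CPM at P6.5. The sum per cell had a lowest, median and highest value of 476, 1369 and 2247 CPM at E17.5, of 1234, 2212 and 3008 CPM at P2.5, and of 1920, 2179 and 2663 CPM at P6.5. Division motors made up 58.9%, 52.9% and 59.4% of the kinesin counts at the 3 ages, cargo motors 30.9%, 30.8% and 29.3%, cilium and signalling genes 6.53%, 10.2% and 6.78%, and the remaining 4 genes 3.67%, 6.09% and 4.51%. Division motors thus held most of the kinesin counts at every age. At least 1 CPM was reached by 33, 31 and 30 members, and at least 100 CPM by 3, 7 and 7. Among members with 5 CPM or more at some age, 12 were highest at E17.5, 9 at P2.5 and 8 at P6.5, and 9 members stayed under 5 CPM throughout.

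Per transcript length (the deposited FPKM), the order of the leading kinesins changed between E17.5 and P2.5 and less between P2.5 and P6.5. At E17.5 the highest mean belonged to Kif3a (median 39.9 FPKM, quartiles 25.2 to 64.6), a subunit of the kinesin-2 motor of cilia and vesicles. Kif22 (32.05, 17.4 to 57.1), Kif15 (30.8, 23.8 to 57.2), Kif5b (31.6, 15.3 to 49.2) and Kif20a (24.98, 12.1 to 53.6) followed. Their quartiles overlap widely, so this order is not resolved. At P2.5 Kif22 (102.04 FPKM, 81.1 to 131.3) and Kif3a (96.2, 75.4 to 115.4) led with overlapping quartiles, ahead of Kif4 (63.7, 49.03 to 80.5) and Kif9 (56.4, 41.2 to 74.3). At P6.5 Kif22 (137.5, 118.6 to 153.4) stood above Kif3a (103.3, 91.98 to 115.1) and Kif4 (95.6, 86.3 to 111.6) without overlap of quartiles, and those 2 overlapped each other. The 10 members with the highest mean held 76.5%, 80.4% and 83.9% of the summed kinesin FPKM at the 3 ages.

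**Figure D1:**
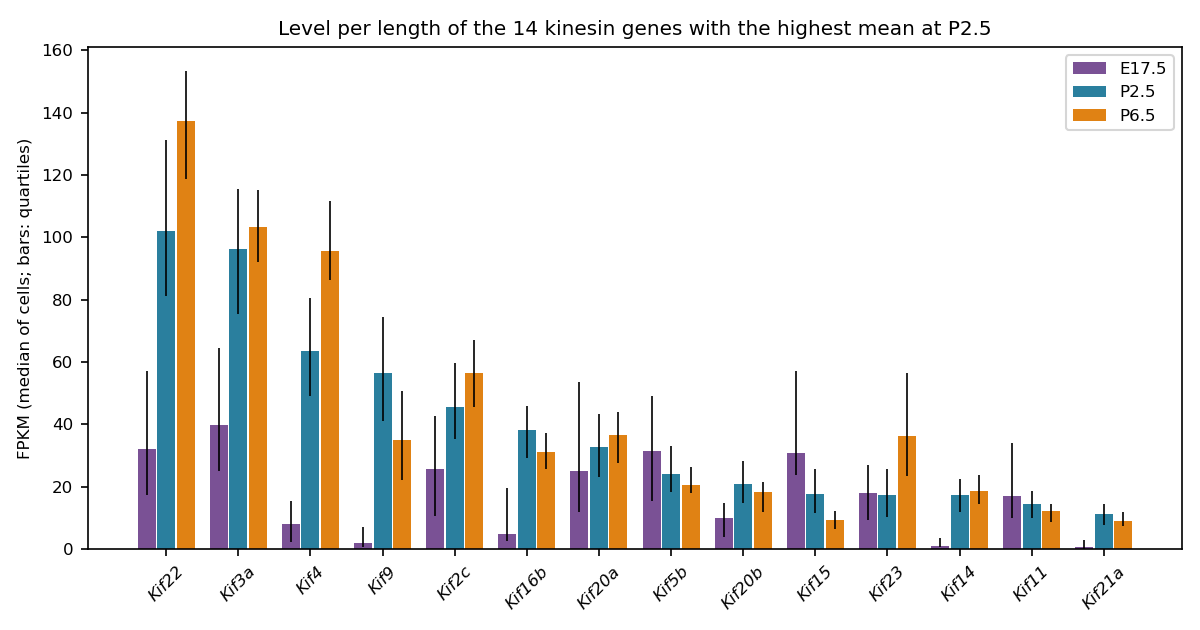
Bars give the median deposited FPKM over cells of the 14 kinesin genes with the highest mean at P2.5, at E17.5 (22 libraries), P2.5 (every cell) and P6.5 (47 libraries), with quartiles as error bars. Kif22 goes from 32.05 to 102.04 and 137.5 FPKM, while Kif15 goes from 30.8 to 17.6 and 9.46 FPKM.

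Between E17.5 and P2.5 the kinesins moved in both directions by large factors. Called here means a difference of at least 2-fold in the CPM of the stage sums after adding 0.5 CPM to both, among genes with at least 1 CPM at 1 of the ages and a count in at least 3 cells. Of 36 members measured in this way, 12 were called higher at P2.5 and 8 lower, against 22.6% and 32.4% of the 17421 genes measured. The median log2 ratio was 0.07 over the members and −0.26 over all genes. Kif12 and Kif2b were at or near 0 and were not measured. Some called members passed the level filter only through the age where they are higher. These were Kif6, Kif7 and Kif19a through P2.5, and Kif1a, Kif3c, Kif26a and Kif26b through E17.5. Scaling moved these medians together, to 0.43 and 0.09 with TMM factors and to 2.46 and 2.09 per spike-in count, so ratios are best read against the median of all genes. Per spike-in count 29 members were called higher and 2 lower, beside 70.9% and 10.9% of all genes. Gene counts per spike-in count had medians of 81.3, 465 and 3203 at the 3 ages, and no source used here gives the amount of spike-in RNA per cell.

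**Figure D2:**
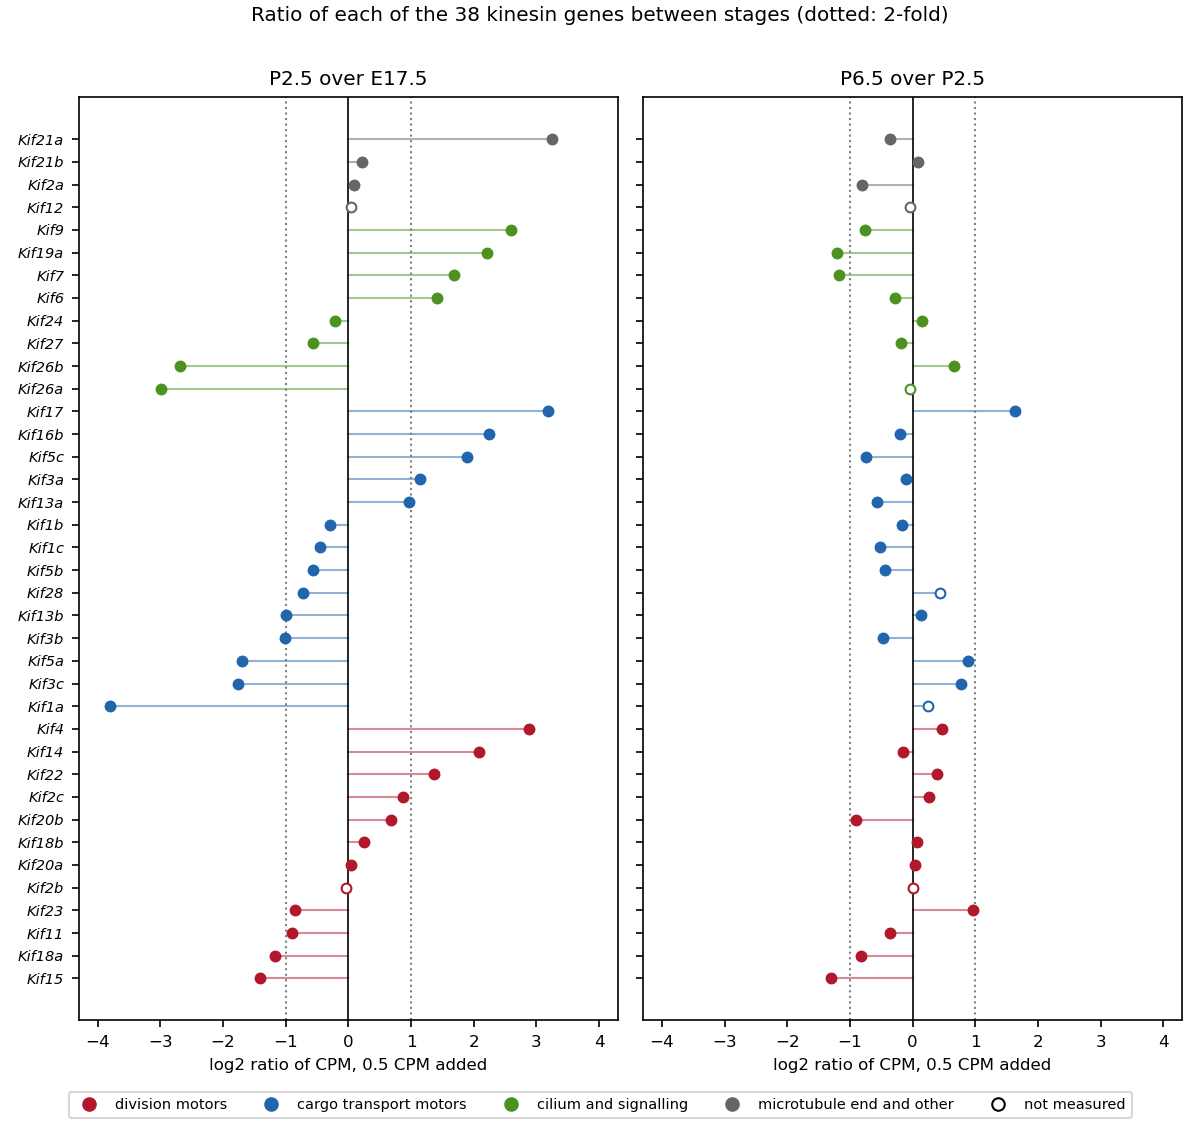
Each point is the log2 ratio of CPM of 1 of the 38 kinesin genes, with 0.5 CPM added to both ages, for P2.5 over E17.5 on the left and P6.5 over P2.5 on the right; genes are grouped by role, open points were not measured and dotted lines mark 2-fold. On the left 12 members lie right of the upper line and 8 left of the lower one; on the right 1 and 3 do.

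Of the 11 measured division motors, Kif4, Kif14 and Kif22 (27.3%) were called higher at P2.5 and Kif15 and Kif18a (18.2%) lower. Of all genes 22.6% and 32.4% were. The median log2 ratio of the 11 was 0.25 (all genes −0.26). Kif4 (chrX:100625737-100727214, plus strand), a chromokinesin that acts in chromosome condensation and at the central spindle, had a lowest, median and highest level of 2.66, 28.98 and 205.8 CPM in E17.5 libraries. At P2.5 these were 50.5, 268.6 and 488 CPM, and 76.1% of P2.5 cells exceeded the highest library of E17.5. The summed level went from 38.9 to 291.1 CPM, a log2 ratio of 2.90 (95% interval 2.87 to 2.94). Kif4 shares 832 exonic bases with Pdzd11 on the other strand, which stood at 35.8, 89.2 and 121.5 CPM at the 3 ages, and the strand setting of the counting is not known. Kif4-ps, the pseudogene copy, was near 0 throughout, with 2 counts at E17.5, 0.0737 CPM at P2.5 and 5 counts at P6.5.

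Kif14 (chr1:136466343-136531511, plus strand), a motor of cytokinesis, ranged from 1.48 to 150 CPM at E17.5 with a median of 15.3 CPM, and from 16.8 to 269.1 CPM at P2.5 with a median of 115.4 CPM. The groups overlapped, with 23.5% of P2.5 cells higher than the top E17.5 library, and the log2 ratio was 2.10 (2.05 to 2.15). Kif22 (chr7:127027729-127042471, minus strand), the chromokinesin Kid that pushes chromosome arms away from spindle poles, ranged from 5.10 to 212.5 CPM at E17.5 (median 61.4) and from 7.73 to 456 CPM at P2.5 (median 205.7). For Kif22, 46.4% of P2.5 cells passed the E17.5 maximum, and the log2 ratio was 1.37 (1.34 to 1.39). All 3 calls also stood with E17.5 libraries 1 to 10 alone and 11 to 22 alone, with the 4 libraries of weak germ cell label left out, without cells with granulosa markers, and under each scaling.

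The division motors called lower were Kif15, a spindle motor that can stand in for Kif11 in keeping the poles apart, and Kif18a, which limits kinetochore microtubule length and damps chromosome movements. Kif15 (chr9:122951046-123018733, plus strand) had a lowest, median and highest level of 16.8, 102.99 and 288.7 CPM at E17.5 and of 0, 41.2 and 208.4 CPM at P2.5. The 2 groups overlapped over most of their range, and the log2 ratio of the sums (121.8 to 45.4 CPM) was −1.42 (−1.45 to −1.40). Kif18a (chr2:109280738-109341747, plus strand) had 6.96, 60.7 and 226.3 CPM at E17.5 and 0, 28.8 and 134.6 CPM at P2.5, with a log2 ratio of −1.18 (−1.21 to −1.15). Per spike-in count both were higher at P2.5, by 0.98 and 1.22 on the log2 scale. Kif15 was not called from the deposited FPKM (−0.96), and Kif18a was not called with TMM factors (−0.81) or without E17.5 library 6 (−0.92).

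The other division motors stayed within 2-fold in these sums, though per spike-in count all 6 were more than 2-fold higher at P2.5 and 4 passed 2-fold under other settings too. Kif11, the plus-end motor that separates the spindle poles, stood at 149.1 and 79.7 CPM (log2 ratio −0.90), and at −1.18 against E17.5 libraries 11 to 22 alone. Kif23, a motor of the central spindle, stood at 81.8 and 45.03 CPM (−0.86), and Kif2c, a depolymerase that corrects kinetochore attachments, at 75.05 and 138.3 CPM (0.88 with the offset). Kif2c was called higher with TMM factors (1.24), with median-of-ratios factors (1.23), against libraries 1 to 10 (1.10) and without library 14 (1.001) or 22 (1.03). Kif20b, another cytokinesis motor, stood at 58.6 and 93.8 CPM (0.67 with the offset), and was called higher with TMM (1.03) and median-of-ratios factors (1.03) and against libraries 1 to 10 (1.14). Kif18b stood at 23.2 and 27.6 CPM. Kif20a, which carries regulators to the central spindle, stood at 90.6 and 92.9 CPM, a log2 ratio of 0.04 (0.01 to 0.06). Kif20a shares 1271 exonic bases with Cdc23 on the other strand, at 44.9 and 53.3 CPM. Leaving out the 4 libraries of weak germ cell label took Kif23 past 2-fold (−1.23), as did leaving out library 8 alone (−1.002).

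**Figure D3:**
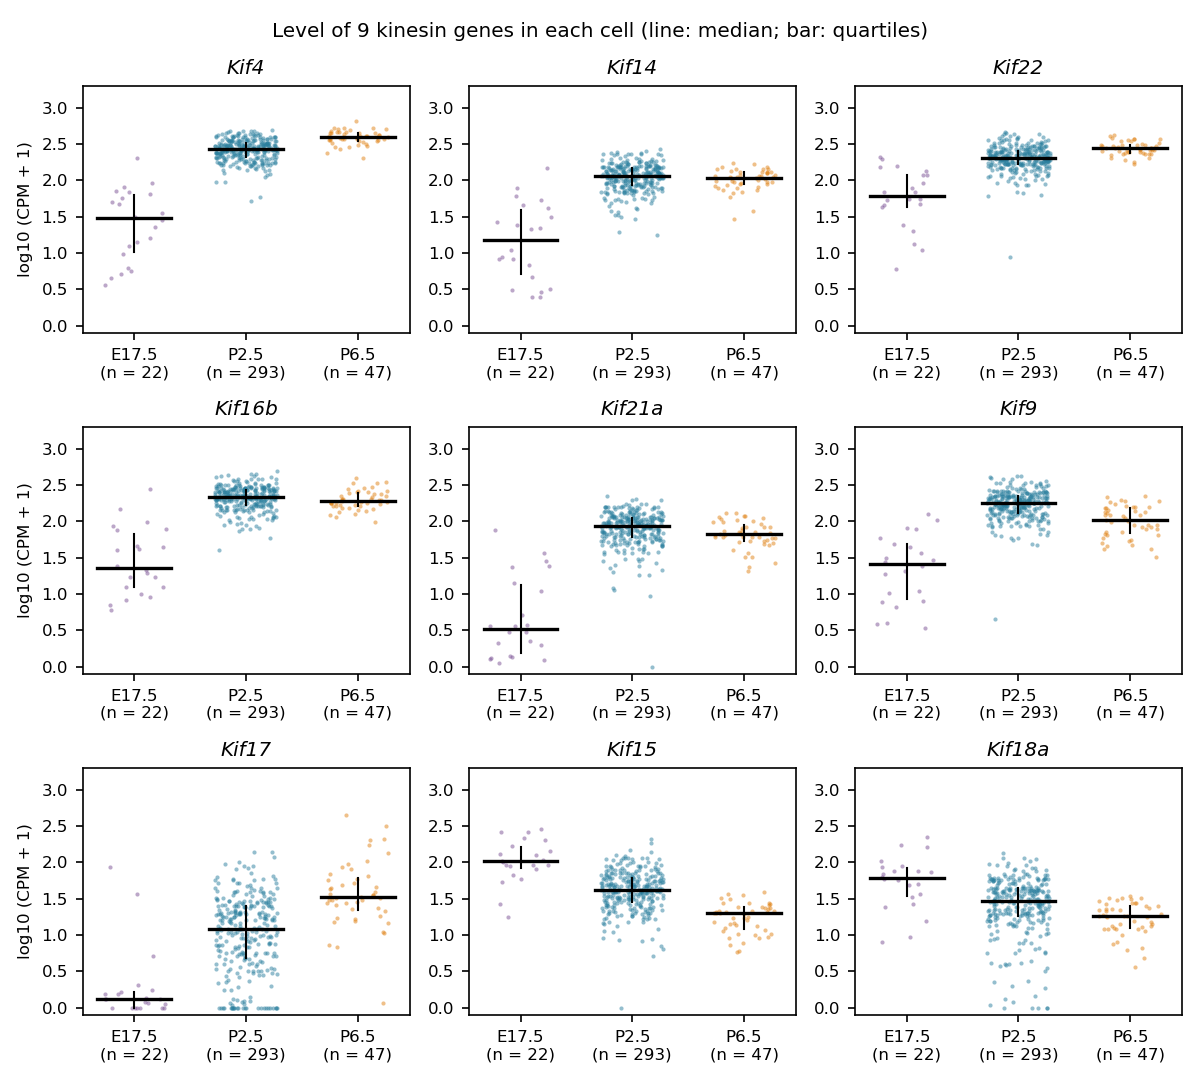
Each point is the level of 1 cell as log10 of CPM plus 1, for 9 kinesin genes at E17.5 (n = 22), P2.5 and P6.5 (n = 47); lines mark medians and bars quartiles. The median of Kif4 goes from 28.98 to 268.6 and 390 CPM and that of Kif15 from 102.99 to 41.2 and 18.9 CPM.

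Among the 14 cargo motors, 4 (28.6%) were called higher at P2.5 and 4 (28.6%) lower, beside 22.6% and 32.4% of all genes. The median log2 ratio was −0.50 for the cargo motors and −0.26 for all genes. Kif16b (chr2:142617474-142901531, minus strand), a kinesin of early endosomes, had a lowest, median and highest level of 5.10, 22 and 279.2 CPM at E17.5 and of 39.5, 218.3 and 491 CPM at P2.5. Its log2 ratio was 2.26 (2.23 to 2.30), and 22.5% of P2.5 cells exceeded its E17.5 maximum. The overlapping transcript Kif16bos was low, at 1.05, 0.296 and 0.196 CPM at the 3 ages. Kif5c (chr2:49619298-49774778, plus strand), a kinesin-1 heavy chain known best from neurons, went from a median of 1.26 CPM (0.0972 to 52.6) to 18.1 CPM (0 to 102.5), and its sums from 5.30 to 21.02 CPM, a log2 ratio of 1.99 (1.88 to 2.09). The housekeeping heavy chain Kif5b remained the main one per length: it lay above Kif5a in every cell of all 3 ages, and above Kif5c in 21 of 22 cells at E17.5, all but 2 at P2.5 and 47 of 47 at P6.5.

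Kif17 (chr4:138250435-138301967, plus strand), a kinesin-2 motor that acts alone rather than with Kif3a, was the cargo motor with the largest ratio. At E17.5 it had a median of 0.315 CPM, and 15 of 22 libraries had a count. Library 7 held 48.4% of the E17.5 counts of Kif17, at 86.4 CPM, and another library stood at 35.9 CPM. The deposited FPKM of Kif17 did not exceed 0.39 in any E17.5 library, and library 7 is 1 of the 2 whose FPKM column ran closer to the counts of another library, so the 2 tables differ on these high values. At P2.5 the lowest, median and highest levels were 0, 11.2 and 137.4 CPM, so that the top of the 2 groups overlapped and 2.39% of P2.5 cells passed the top E17.5 library. The sums went from 1.80 to 20.5 CPM, a log2 ratio of 3.51 (3.33 to 3.69). With each cell weighted equally the ratio, with the offset, was 1.5 in place of 3.19.

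The kinesin-2 subunits Kif3a and Kif3b went opposite ways as a share of counts, although both build the same heterotrimer with the adaptor Kifap3. Kif3a (chr11:53567379-53601967, plus strand) had a lowest, median and highest level of 9.75, 122.9 and 260.9 CPM at E17.5 and of 62.96, 243.4 and 551 CPM at P2.5, with a log2 ratio of 1.14 in the sums after the offset. It was not called with each cell weighted equally (0.97) or with the 4 libraries of weak germ cell label left out (0.84). Kif3b (chr2:153291413-153333390, plus strand) had 1.33, 6.08 and 97.9 CPM at E17.5 and 0, 6.59 and 86.5 CPM at P2.5, so its medians barely differed. Its sums were 22.7 and 11.05 CPM, a log2 ratio with the offset of −1.01, and leaving out any 1 of 6 E17.5 libraries (2, 5, 12, 14, 17 and 20) ended the call, with values of −0.99 to −0.61. Kif3b was also not called against libraries 1 to 10 (−0.93), with TMM factors (−0.66) or from the deposited FPKM (−0.67). Per spike-in count Kif3b was higher at P2.5 by 1.34. Per length Kif3a lay above Kif3b in every cell of all 3 ages, with medians of 39.9, 96.2 and 103.3 FPKM against 0.835, 1.01 and 0.890 FPKM. Kifap3 itself stood at 68.3, 196.3 and 154.4 CPM in the sums.

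The other called cargo motors rested on few E17.5 libraries. Kif1a, the carrier of synaptic vesicle precursors in neurons, had a lowest, median and highest level of 0, 1.6 and 88.6 CPM at E17.5 and of 0, 0 and 20.6 CPM at P2.5. Its sums were 13.2 and 0.480 CPM, a log2 ratio of −4.78 (−4.89 to −4.68). It had a count in 1 of E17.5 libraries 1 to 10, at 0.264 CPM, and in 12 of 12 libraries 11 to 22, at 1.17 to 88.6 CPM. Library 16, of weak germ cell label and with 2147 CPM of granulosa and pregranulosa markers, held 35.9% of the E17.5 counts of Kif1a. Kif3c, another kinesin-2 motor, had no count in libraries 1 to 10 and a count in all 12 of libraries 11 to 22, and library 21 alone held 88.6% of it. Without that library Kif3c stood at 0.545 CPM against 0.997 CPM at P2.5, under the level needed to be measured. Kif5a was at 4.65 and 1.09 CPM, with 44.7% of its E17.5 counts in library 3. Per spike-in count Kif3c and Kif5a were higher at P2.5 (0.19 and 0.28). Without cells holding at least 100 CPM of granulosa and pregranulosa markers, which leaves out 10 E17.5 libraries and 8 P2.5 cells, Kif1a and Kif3c were no longer measured. The signalling gene Kif26a was not either, and 33 members were measured in that setting. Of the E17.5 libraries left out, 9 are among libraries 11 to 22 and 1 among libraries 1 to 10. The part of the markers thus cannot be told apart from that of the run.

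The cargo motors within 2-fold included Kif5b (92.1 and 62.4 CPM), Kif1b (50.8 and 41.2 CPM) and Kif13b (64.6 and 32.1 CPM), the last at the edge of the threshold with a log2 ratio of −1.01 before and −0.996 after the offset. Kif13b was called lower when any 1 of 12 E17.5 libraries was left out (−1.08 to −1.001), with the 4 libraries of weak germ cell label left out (−1.29) and against libraries 1 to 10 (−1.17), and it was −0.64 with TMM factors. Kif13a, a carrier of recycling endosomes, stood on the other edge at 7.66 and 15.4 CPM (0.97 after the offset), and was called when any 1 of 5 E17.5 libraries (2, 3, 15, 16 and 22) was left out. Kif1c and Kif28 were under 5 CPM at all 3 ages. For Kif28, library 6 held 83.1% of the E17.5 counts, and the gene shares exonic bases with Ahctf1 on its own strand, which stood at 264.9 CPM at E17.5. Kif28 was called lower against libraries 1 to 10 (−1.56), without cells with granulosa markers (−1.16) and with an offset of 0.1 CPM (−1.11).

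**Figure D4:**
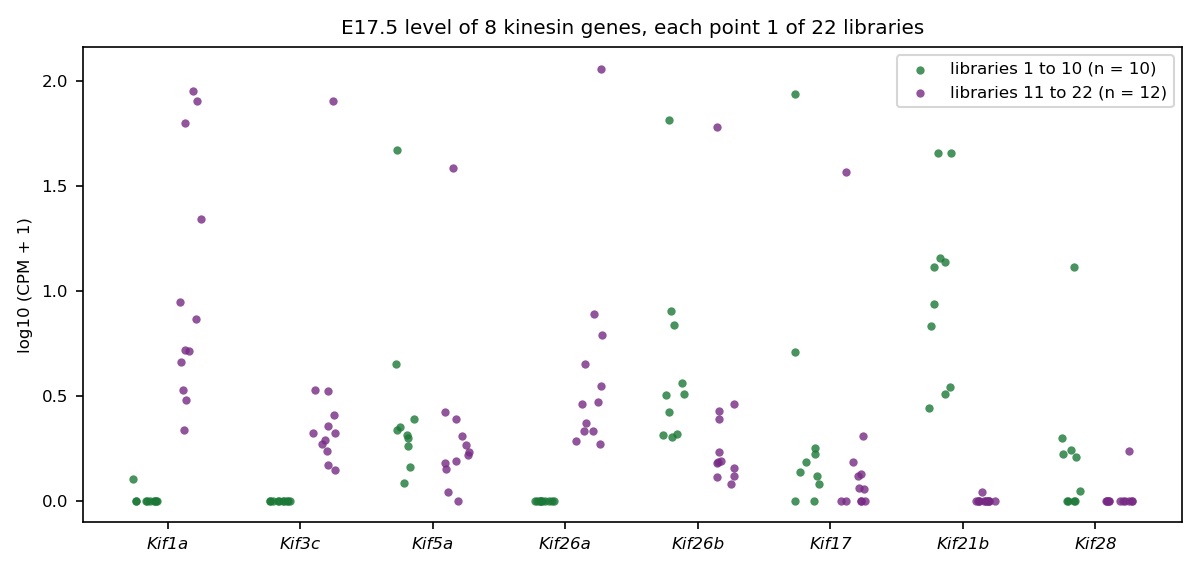
Each point is 1 of the 22 E17.5 libraries, drawn as log10 of CPM plus 1 for 8 kinesin genes, with libraries 1 to 10 and libraries 11 to 22 of the labels in different colours. Kif3c and Kif26a have no count in libraries 1 to 10, and Kif21b has one in 10 of 10 of these and in 1 of 12 of the others.

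Of the 8 cilium and signalling genes, 4 (50%) were called higher at P2.5 and 2 (25%) lower, beside 22.6% and 32.4% of all genes. The median log2 ratio of the list was 0.60. Of the higher genes, Kif6, Kif7 and Kif19a were under 1 CPM at E17.5 and passed the level filter only through P2.5. Both lower genes, Kif26a and Kif26b, were under 1 CPM at P2.5 and passed it only through E17.5. The counts and the median thus rest largely on low genes. The main gene of the list was Kif9 (chr9:110476958-110525179, plus strand), a kinesin of motile cilia and sperm flagella. It had a lowest, median and highest level of 2.39, 25.1 and 126.4 CPM at E17.5 and of 3.55, 177.8 and 419 CPM at P2.5, and 76.5% of P2.5 cells lay beyond the E17.5 range. The log2 ratio was 2.62 (2.58 to 2.66), and it was 2.08 with the offset against libraries 1 to 10 and 3.22 against libraries 11 to 22. The call stood under every scaling and library set tried. Kif6, the other member of the same subfamily, was higher too but low, at 0.743 and 2.82 CPM (1.42 with the offset), and 1 library held 65.7% of its E17.5 counts. Its call was lost against libraries 11 to 22 (0.85) and with an offset of 2 CPM (0.81).

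Kif7, the Hedgehog pathway kinesin of the cilium tip, had 1 count in all E17.5 libraries and 1.13 CPM at P2.5, and Kif19a, which shortens microtubules at cilium tips, had 0 counts and 1.82 CPM. Against a floor of 3 counts over the E17.5 sum, the P2.5 level of Kif19a was at least 85.9-fold higher, and with Kif19a at that bound the list median stayed 0.60. At P2.5, 31.7% of cells had a count of Kif7 and 59.04% a count of Kif19a. With an offset of 2 CPM neither Kif7 (0.64) nor Kif19a (0.935) was called, and Kif7 was not called from the deposited FPKM (0.71). Kif7 shares 51 exonic bases with Ticrr on the other strand, which stood at 53.5 and 49.7 CPM.

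Kif26a and Kif26b, kinesin-like proteins that bind microtubules without stepping and act in signalling, were lower at P2.5. Kif26b (chr1:178529125-178939200, plus strand) had a lowest, median and highest level of 0.208, 1.28 and 64.3 CPM at E17.5 and of 0, 0 and 34.4 CPM at P2.5, and its sums were 8.12 and 0.843 CPM, a log2 ratio of −3.27 (−3.37 to −3.16). The high values came from library 10 (64.3 CPM, 50.6% of the counts), the one highest in mast cell genes, and another at 59.7 CPM. Kif26a (chr12:112146208-112181747, plus strand) had 0, 0.900 and 113.9 CPM at E17.5 and 0, 0 and 21.2 CPM at P2.5, with a log2 ratio of −4.05 (−4.18 to −3.92). Library 18 held 86.5% of the E17.5 counts of Kif26a, and without it the gene stood at 0.955 CPM and was not measured (−0.68). The part of other cells in these few libraries was not tested. Kif24, which restrains cilium formation, and Kif27, a relative of Kif7, stayed within 2-fold, at 27.04 and 23.3 CPM and at 18.3 and 12.3 CPM.

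Among the remaining members, Kif21a (chr15:90933276-91049948, minus strand), a motor that holds back microtubule growth at the cell cortex, had the largest ratio after the offset of all 36 measured members. It had a lowest, median and highest level of 0.111, 2.30 and 74.3 CPM at E17.5 and of 0, 86.2 and 221.1 CPM at P2.5, and 61.8% of P2.5 cells exceeded the E17.5 maximum. The sums were 8.96 and 89.6 CPM, a log2 ratio of 3.32 (3.24 to 3.40). With the offset it was 4.87 against E17.5 libraries 1 to 10 (2.58 CPM) and 2.62 against libraries 11 to 22 (14.1 CPM). Kif21b, its relative, showed the reverse split at E17.5, with 16.6 CPM in libraries 1 to 10 and 0.0128 CPM in libraries 11 to 22. The Kif21b ratio was 0.22 over all E17.5 libraries, −0.89 against the first set and 4.17 against the second, so its call depends on the set. Mast cell genes split in the same way (1209 to 97392 CPM against 0 to 25.4 CPM), as did the growth list (median 158.8 against 24.02 CPM), and their part in the Kif21b split was not tested. Kif2a, a depolymerase of microtubule ends, stood at 34.7 and 37.2 CPM, and it shares 1229 exonic bases with Dimt1 on the other strand (55.8 and 22.7 CPM).

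Between P2.5 and P6.5, while the growth list (zona pellucida, oocyte-secreted and egg-store genes) went from a median of 10061 to 52024 CPM per cell, few kinesins differed by 2-fold. Of 33 members measured, 1 was called higher (Kif17) and 3 lower (Kif15, Kif7 and Kif19a), against 6.9% and 9.3% of the 14643 genes measured. Kif7 and Kif19a passed the level filter only through P2.5, the age where they are higher. The median log2 ratio was −0.19 over the members and −0.18 over all genes, and with TMM factors both were 0.04, so the sign of the members' median depends on the scaling. The P2.5 cells serve both comparisons, so the ratios of the 2 are not independent of each other.

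Kif17 had a lowest, median and highest level of 0.162, 32 and 450 CPM at P6.5, and 10.6% of P6.5 cells exceeded the P2.5 maximum. Its sum was 64.9 CPM, a log2 ratio of 1.67 (1.64 to 1.69), and the 2 ages overlapped over most of their range. Kif15 was lower again, with 4.89, 18.9 and 38.6 CPM, so that every P6.5 cell lay inside the range of P2.5 cells. Its sum of 18.02 CPM gave a log2 ratio of −1.33 (−1.37 to −1.30). Kif7 and Kif19a, under 5 CPM at all ages, stood at 0.220 and 0.508 CPM. Neither was called lower with an offset of 2 CPM (−0.49 and −0.61) or from the deposited FPKM (−0.55 and −0.71). Per spike-in count Kif15, Kif7 and Kif19a were higher at P6.5, by 1.59, 0.42 and 0.91.

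Kif23 stood just short of 2-fold at P6.5 (lowest 35.01, median 74.3 and highest 177.3 CPM), with a log2 ratio of 0.97 (0.96 to 0.99) and a level close to its E17.5 one. It was called with TMM factors (1.20) and from the deposited FPKM (1.05). Kif4 and Kif22 were higher again, within 2-fold, at 405 and 280.6 CPM (0.48 and 0.40), and 14.9% of P6.5 cells exceeded the P2.5 maximum for Kif4. Kif20b (−0.90), Kif18a (−0.83) and Kif2a (−0.82) were lower within 2-fold. As a share of counts, Kif9 (−0.76), Kif21a (−0.36), Kif14 (−0.15) and Kif16b (−0.19) had their highest level at P2.5. With TMM factors Kif14 (0.09) and Kif16b (0.04) were slightly higher at P6.5 than at P2.5, and Kif14 was from the deposited FPKM too (0.08).

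The proteins that work with kinesins also moved in both directions. Of 19 measured partners and kinesins without a Kif number, 6 (31.6%) were called higher at P2.5 than at E17.5 and 3 (15.8%) lower, with a median of 0.42, beside 22.6% and 32.4% of all genes and a median of −0.26. The higher ones included Trak1, the mitochondrial adaptor of kinesin-1, at 5.69, 72.04 and 126.7 CPM at the 3 ages, Rhot1, which anchors Trak proteins to mitochondria, at 89.6, 248.2 and 226.9 CPM, and Kifc1, the minus-end motor of acentrosomal spindles, at 5.56, 28.8 and 60.8 CPM. Kifc1 was the 1 partner called higher at P6.5 than at P2.5 (log2 ratio 1.08, 1.06 to 1.10). Mapk8ip3, a scaffold between kinesin-1 and dynein, was lower at P2.5 (110 and 28.4 CPM). Cenpe, the kinesin-7 of kinetochores, stayed within 2-fold, going from 93.9 to 165.9 CPM between E17.5 and P2.5.

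Of the 12 dynein and dynactin genes, the minus-end side of transport, 0 were called higher at P2.5 and 5 (41.7%) lower, beside the same 22.6% and 32.4% of all genes. Their median of −0.23 lay close to that of all genes (−0.26). The 5 were Dync1i1, the cilium motor Dync2h1, the adaptors Bicd1 and Bicd2, and the dynein regulator Pafah1b1, at 111.3 and 53.03 CPM. The core heavy chain Dync1h1 stood at 130.6 and 115.9 CPM. Of 14 proliferation genes, 5 (35.7%) were called higher and 2 (14.3%) lower: Prc1, the microtubule bundler of the central spindle that binds Kif4, went from 28.3 to 172.4 CPM, whereas Top2a went from 398 to 37.8 CPM and Mki67 from 121.2 to 36.7 CPM. Higher Kif4, Kif14 and Kif22 and lower Top2a thus stood side by side in the same P2.5 sum, with Kif15 and Kif18a lower too.

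Among the P2.5 cells, 23 members had a median of at least 10 CPM. For 11 of these the 90th percentile was at least 4 times the 10th, against 50% of the 8434 genes of such a level, and the median ratio of the percentiles was 3.37 for the members and 4.0 for all genes. Kif3a (154.1 to 330 CPM, 2.14-fold), Kif4 (170.1 to 396 CPM, 2.33-fold), Kif16b (133.05 to 314.8 CPM, 2.37-fold) and Kif22 (127.3 to 313.5 CPM, 2.46-fold) were the narrowest, and they are also among the highest, where counting noise is least. Kif17 was the widest, from 0.233 to 39.7 CPM, with a count in 91.5% of cells. Kif13a (1.34 to 36.9 CPM), Kif24 (3.90 to 51.5 CPM), Kif5c (3.46 to 42.9 CPM), Kif13b (5.64 to 67.1 CPM), Kif18b (5.16 to 52.9 CPM) and Kif18a (6.70 to 60.5 CPM) were wide too, at medians of 11.2 to 28.8 CPM. Kif23, Kif1b, Kif15 and Kif2a made up the rest of the 11. Of 14 members with a median of at least 10 in the deposited FPKM, 2 were as wide on that scale, beside 2602 of 6506 genes.

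Across the same cells, few members varied with the growth genes, and as CPM no larger a share of them than of all genes. The Spearman rho with the summed growth list was 0.37 for Kif4, 0.34 for Kif16b and −0.35 for Kif15 (over all P2.5 cells, a description with no p), so 2 of 23 members were at or above 0.3 and 1 at or below −0.3, against 10.4% and 6.87% of all genes. From the deposited FPKM Kif16b was at 0.25 and Kif15 at −0.26, while Kif3a (0.34) and Kif20a (0.31) passed 0.3 with Kif4, 3 of 14 members beside 784 of 6506 genes. The points share the depth of each library: rho with total gene counts was 0.35 for Kif4, 0.25 for Kif16b and −0.10 for Kif15, and 0.38 for the growth list. With every cell thinned to 435560 counts the values for Kif4 and Kif16b were 0.35 and 0.33, and that for Kif15 was −0.29. With gene counts per spike-in count, no member reached 0.3 in size (0.296% and 0.628% of all genes did), and the ends were 0.26 for Kif4 and −0.27 for Kif14.

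**Figure D5:**
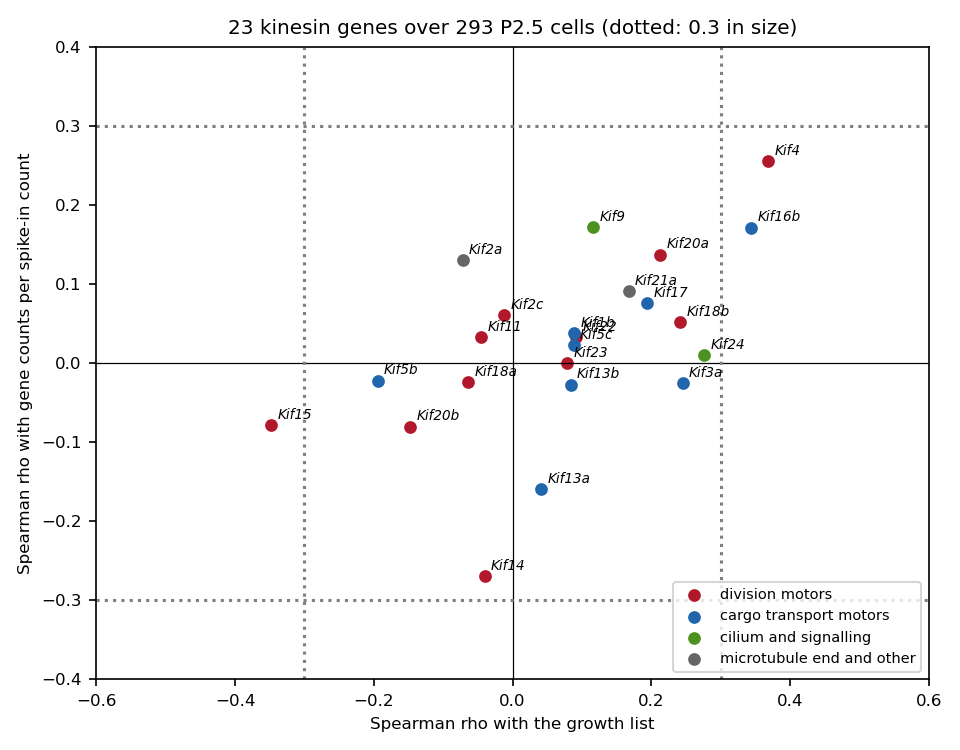
Each point is 1 of 23 kinesin genes over all P2.5 cells, placed by its Spearman rho with the summed growth list and with gene counts per spike-in count; dotted lines mark 0.3 in size. Kif4 (0.37) and Kif16b (0.34) lie past the right line and Kif15 (−0.35) past the left one, and no gene lies past a horizontal line.

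The kinesins did not vary together strongly from cell to cell at P2.5. Over every pair of the 23 members the rho ran from −0.25 to 0.31 with a median of 0.05, and 2 pairs reached 0.3, Kif4 with Kif20a (0.31) and with Kif16b (0.30). The most opposed pair was Kif15 with Kif16b (−0.25). Counts are sparse for the lower genes, and a weak rho among them is no finding. The same was not computed over pairs of all genes, so these values describe no trait particular to kinesins.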

How the data were processed

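Single germ cells from 3 ages were profiled as 386 libraries, 317 of them at P2.5. The authors deposited raw counts per gene and FPKM (scaled to gene length and library size), with 1 column per library and 0 columns of no library. Per the submitters' processing notes, the tools were RSEM 1.3.3, HTSeq 0.13.5 and STAR 2.7.10b, with mm10 as the build. Which tool made which table, the annotation used and whether counting used strand are each not given in the sources used here. Reads of near-identical copies and of overlapping genes may therefore be split uncertainly. For E17.5 libraries 4 and 7, the FPKM column ran slightly closer to the counts of another library than to their own.

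Library sizes exclude the 92 spike-in rows, which held 1.18%, 0.226% and 0.0296% of counts by age. Library pairs with a median chi-square per gene under 1.5 (genes of 20 or more counts in the pair) were summed as 1 cell, which gave 293 cells at P2.5: 24 pairs lay at 0.686 to 1.03 and the closest other pair at 2.79. Counts were summed per age and scaled to CPM. Ratios have exact conditional Poisson 95% intervals (Python 3.11.15, scipy 1.17.1); calls and list medians used the ratio after adding 0.5 CPM. Without molecular identifiers reads are no independent molecules, so these intervals are too narrow. No test was made, because each age is 1 sample without named animals. The ratio and correlation steps were tested on simulated data. TMM factors came from edgeR 4.0.16 in R 4.3.3 and were used as an alternative scaling only. Alternatives were another scaling, offset or filter, the deposited FPKM, equal weight per cell, and sets of cells.

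Named in full are members with at least 5 CPM and a 2-fold difference, the 10 with the highest mean FPKM at any age, and those past the limits within P2.5 cells (rho of 0.3, or a 90th percentile of 4 times the 10th); others are named with levels so that every member is accounted for. Members, gene lists and settings were chosen with earlier results of these data known.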

Additional observations from a re-analysis of the deposited data

How the results depend on the processing

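Depth was 435560 counts or more per library. Ratios between ages are limited more by 22 E17.5 libraries of mixed make-up and 1 sample per age than by reads, while spread and rho among P2.5 cells are also limited by counting noise in the lower genes. No paired analysis was possible because the results come from no test and the replicate numbers are only names of cells. For P2.5 over E17.5 (12 members higher, 8 lower, median 0.07), the median was 0.43 with TMM factors, 0.42 with median-of-ratios factors, 0.29 without cells with granulosa markers (12 higher, 6 lower), −0.083 with the 4 libraries of weak germ cell label left out (12 higher, 11 lower), 0.62 against libraries 1 to 10 (15 higher, 6 lower) and −0.050 against libraries 11 to 22 (12 higher, 9 lower). Per spike-in count 29 were higher and 2 lower, with a median of 2.46, and from the deposited FPKM 4 were lower, beside 24.3% of all genes. Of all genes 28.7% were then higher and 26.5% lower with TMM factors, and 70.9% and 10.9% per spike-in count. These shares were 25.3% and 30.4% without cells with granulosa markers. With the 4 libraries of weak germ cell label left out they were 23.1% and 32.7%. Leaving out 1 E17.5 library at a time, a choice made after seeing the data, gave 12 to 14 members higher, 7 to 10 lower and a median of 0.02 to 0.14. Per spike-in count Kif15 (0.98), Kif18a (1.22), Kif3b (1.34), Kif3c (0.19) and Kif5a (0.28) turned from lower to higher.

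For P6.5 over P2.5 (1 higher, 3 lower, median −0.19), 3 were higher with TMM factors (median 0.042) and with median-of-ratios factors (median 0.10), 31 higher and 0 lower per spike-in count (median 2.74), and 2 higher and 1 lower from the deposited FPKM. Of all genes 9.35% were higher with TMM factors and 10.3% with median-of-ratios factors, and 6.71% were higher and 6.15% lower from the FPKM. With equal weight per cell 2 were higher (7.25% of all genes), and with an offset of 0.1 CPM 2 were higher (8.11%). With an offset of 2 CPM or at least 5 CPM 1 was lower (4.02% and 6.82% of all genes). Kif15 (1.59), Kif19a (0.91) and Kif7 (0.42) turned to higher per spike-in count. Of all genes 96.4% were then higher. Leaving out 1 P6.5 library at a time gave 1 higher, 3 lower and a median of −0.22 to −0.15, and the same without cells with granulosa markers, also chosen after seeing the data, gave a median of −0.18.

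Within P2.5 cells, 0 members had a growth rho of −0.3 or below after thinning and from the deposited FPKM, and 2 in place of 11 had a 4-fold spread from the FPKM, which only 14 members reached the level for. The cause of these changes was not tested.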

Other observations

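The 38 kinesin genes lie on many chromosomes, and chromosomes 1, 4 and 11 hold 5 each. Kif4, one of the highest members after birth, lies on the X chromosome.

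Kifc5c-ps, a pseudogene of the minus-end motor family, went from 4.51 CPM before birth to 0.113 CPM at P2.5, the reverse of Kifc1 (5.56 and 28.8 CPM). Kifc5b stayed at 14.7, 11.2 and 15.1 CPM over the 3 ages. Reads of these near-identical copies can be split between rows, so their separate levels are uncertain.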
